A study of Mus musculus with 5 samples.

Results

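The immediate early genes described here are Fos, Fosb, Jun, Junb, Atf3, Egr1, Nr4a1, Ier2, Ier3 and Dusp1. They were taken as the rows of the deposited expression table whose gene symbol is one of these names, and all 10 were found, as 10 of 14697 transcripts. The genes were chosen by their levels in both genotypes of this table, known from earlier work on it, so the levels and ratios of the 10 are a description. The table comes from RNA-seq of atrioventricular canals (AVC), the region between atria and ventricles in which the endocardial cushions grow and the valves begin to form, dissected from C57BL/6 mouse embryos at embryonic day 12.5. One group had the genotype Sox9fl/fl:Tie2-Cre/+ (Sox9 cKO), in which Cre under the Tie2 promoter deletes Sox9, a transcription factor of valve mesenchyme, in endothelial cells, their descendants and blood lineages. The other had the genotype Sox9fl/fl:+/+ (WT), with the same floxed alleles but without Cre; Cre itself is thus a further difference between the groups. Per the labels, AVCs were genotyped, checked for their degree of Sox9 deletion and pooled, and 2 libraries were made for each genotype. Both libraries were merged into 1 deposited value for each genotype, so the spread between libraries is unknown, no test was possible, and the sequencing depth behind the values is unknown.

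Immediate early genes are switched on within minutes of a stimulus by transcription factors that are already in the cell, without new protein synthesis. Growth factors, stretch, stress and the handling of tissue all act through kinase cascades on factors such as SRF, its ELK partners and CREB, which sit on the promoters of these genes. Many of the products are transcription factors that act on a later wave of genes, and others, such as phosphatases, shut the signal off. Their transcripts are short-lived.

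In Sox9 cKO AVCs, Fos, Egr1, Ier3 and Nr4a1 were between 2.47 and 5.10 times their WT level in the deposited values, and Junb was 2.05 times its WT level. Jun was lower, at 64.0% of its WT level. Atf3, Ier2 and Dusp1 stood at 98.4%, 89.7% and 108% of their WT levels, and Fosb was under 1 nFPKM in both genotypes. The family of AP-1 factors, to which Fos, Fosb, Jun, Junb and Atf3 belong, thus held members with differences in opposite directions.

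The promoters of 8 of the 10 genes were matched by symbol in RefSeq's table for the build GRCm38.p6, as 250 bases before and 50 after the annotated start; Egr1 and Ier2 were not matched. The sequences of Fos, Nr4a1 and Dusp1 below hold letters through which CREB and related factors, EGR factors or the basal machinery can bind. That of Jun holds none of the marked letters, which had to match exactly. It does hold TGACATCA, which is close to the full element TGACGTCA. The sequences are shown because their genes differed strongly (Fos, Nr4a1), differed little (Dusp1) or differed the other way (Jun). All run 5′ to 3′ on the strand of the gene. Capitals mark TGACG, the core of the cAMP response element, on either strand (read as CGTCA on the reverse), the full element TGACGTCA, the EGR site GCGNGGGCG on either strand and the TATA box TATAAA. Fos lies at chr12:85473640-85473939 on the plus strand, Nr4a1 at chr15:101266596-101266895 on the plus strand, Dusp1 at chr17:26508423-26508722 on the minus strand and Jun at chr4:95052173-95052472 on the minus strand. These positions are not those of mm9, the build named for the expression values.
Fos: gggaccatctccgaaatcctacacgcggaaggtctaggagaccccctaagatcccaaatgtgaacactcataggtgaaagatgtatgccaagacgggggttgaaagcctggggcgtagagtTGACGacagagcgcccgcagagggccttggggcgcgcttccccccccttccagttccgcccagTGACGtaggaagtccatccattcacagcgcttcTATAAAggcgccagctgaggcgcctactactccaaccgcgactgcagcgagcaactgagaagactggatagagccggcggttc
Nr4a1: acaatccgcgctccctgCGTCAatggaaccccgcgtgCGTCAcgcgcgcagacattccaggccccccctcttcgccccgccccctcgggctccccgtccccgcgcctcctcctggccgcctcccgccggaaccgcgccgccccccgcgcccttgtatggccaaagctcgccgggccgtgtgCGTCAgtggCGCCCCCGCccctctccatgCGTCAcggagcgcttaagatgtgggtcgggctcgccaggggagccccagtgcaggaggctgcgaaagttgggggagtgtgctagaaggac
Dusp1: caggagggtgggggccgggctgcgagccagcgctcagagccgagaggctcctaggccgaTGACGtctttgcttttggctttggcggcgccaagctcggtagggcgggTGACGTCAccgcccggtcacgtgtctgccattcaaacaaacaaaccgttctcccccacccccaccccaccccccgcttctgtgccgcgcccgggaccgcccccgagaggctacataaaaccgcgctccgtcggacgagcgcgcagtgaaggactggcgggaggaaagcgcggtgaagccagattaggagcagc
Jun: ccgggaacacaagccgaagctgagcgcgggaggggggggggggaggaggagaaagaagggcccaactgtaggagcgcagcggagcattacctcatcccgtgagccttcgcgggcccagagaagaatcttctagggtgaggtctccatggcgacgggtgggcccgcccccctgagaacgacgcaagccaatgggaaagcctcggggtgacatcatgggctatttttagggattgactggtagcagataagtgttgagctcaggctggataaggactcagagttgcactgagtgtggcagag

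Both strands were searched for 7 motifs. TGACG was found in 6 of the 8 promoters, those of Fos, Fosb, Junb, Atf3, Nr4a1 and Dusp1, against 20.8% of all 32851 promoters in the table. Nr4a1 held it 4 times, as 0.231% of all promoters did at least 4 times, Dusp1 held it 3 times and Fos 2 times. In Dusp1, 2 of the 3 matches lie within the full element TGACGTCA, which 1.79% of all promoters hold and which no other of the 8 held. The EGR site, the letters bound by the product of Egr1, was found in Fosb and Nr4a1 and in 5.55% of all promoters. In Nr4a1 it lies from 60 to 52 bases before the start, beside a TGACG match. The TATA box was found in Fos, from 33 to 28 bases before the start, and in Junb, from base 1 to base 6 after it. Anywhere in the window and on either strand, it was in 13.6% of all promoters. On the strand of the gene and at about the place of the Fos match, it was in 1.99%. The CArG box, which SRF binds, the AP-1 site TGANTCA and the SOX site ACAAAG were in none of the 8 windows, against 1.63%, 7.81% and 18.7% of all promoters. Ier3, which was higher in Sox9 cKO, and Jun, which was lower, held none of the 7 motifs in this window. The 8 promoters were 54.0% to 72.3% G and C, and the median of all promoters was 52.7%. Such matches are a description of letters, not of bound sites, and the window ends short of more distant elements.

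**Figure D1:**
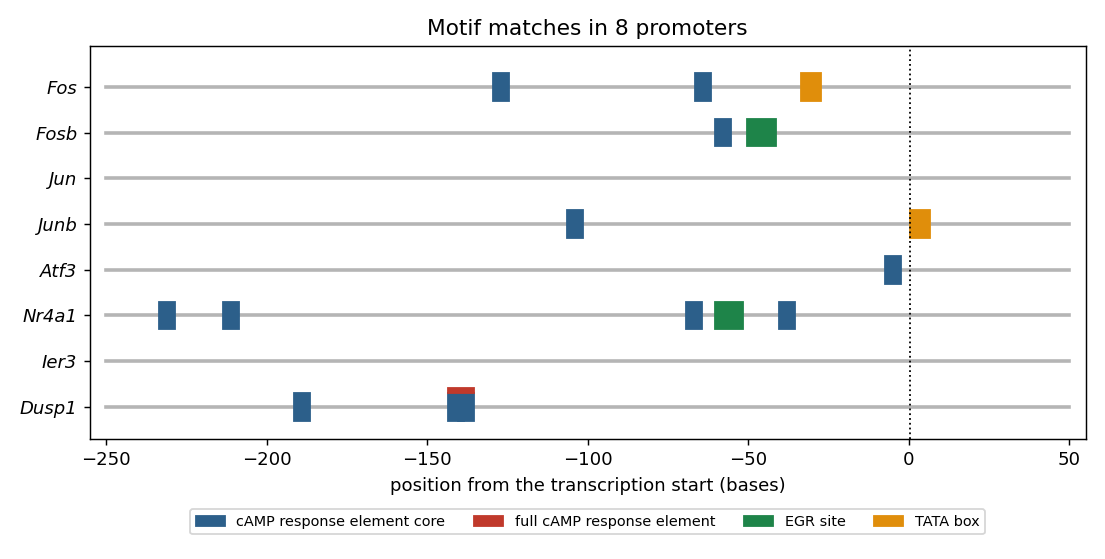
Matches to 4 of the motifs in the 8 promoters, drawn to scale by distance from the annotated start in bases (negative before the start; grey line, the 300 bases searched; colours, motif). Nr4a1 has 4 cores of the cAMP response element and Ier3 and Jun have no match.

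Levels are given in nFPKM, the authors' further normalized FPKM (fragments scaled to transcript length and to the mapped total). FPKM allows levels of different genes to be compared. How the further normalization was done is not given, so for nFPKM this is assumed. Among the AP-1 factors, Fos had the largest difference. Fos stood at 29.1 nFPKM in Sox9 cKO AVCs, against 5.71 nFPKM in WT AVCs, a 5.10-fold difference in the deposited values. FOS proteins bind DNA as dimers with JUN proteins. To compare genes, log2 ratios of Sox9 cKO over WT were computed after adding 1 nFPKM to each value, which understates the ratio of low genes, and the median over the 13793 transcripts that reached 1 nFPKM in Sox9 cKO or WT, -0.11, was subtracted. On this scale, called the relative log2 ratio, Fos stood at 2.27, the transcript ranked 12 of 13793 from the top. By level, Fos was ranked 5723 of the 14697 transcripts in Sox9 cKO AVCs and 11016 in WT AVCs.

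Fosb, a close relative of Fos, stood at 0.82 nFPKM in Sox9 cKO AVCs, against 0.40 nFPKM in WT AVCs. It was the 1 gene of the 10 that did not pass the filter of 1 nFPKM, and its ratio is not used. Junb, a JUN family factor that acts less strongly than JUN on many targets, stood at 9.53 nFPKM in Sox9 cKO AVCs, against 4.65 nFPKM in WT AVCs. Its relative log2 ratio of 1.01 lies at the edge of a 2-fold difference, and it was 0.90 before the median was subtracted. Jun, the main partner of FOS proteins, stood at 45.4 nFPKM in Sox9 cKO AVCs, against 71.0 nFPKM in WT AVCs, a relative log2 ratio of -0.53. Jun was therefore lower where Fos and Junb were higher, although its difference was under 2-fold. Atf3, a stress-induced factor of the ATF and CREB family that can pair with JUN proteins, stood at 24.7 nFPKM in Sox9 cKO AVCs, against 25.1 nFPKM in WT AVCs. Its relative log2 ratio was 0.08 and turned to -0.02 without the subtraction, so no direction is given for it.

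The makeup of the AP-1 transcripts differed between the genotypes. The Fos family members in the table (Fos, Fosb and Fosl2) summed to 57.1 nFPKM in Sox9 cKO AVCs and to 26.9 nFPKM in WT AVCs. The Jun family (Jun, Junb and Jund) summed to 132 nFPKM in Sox9 cKO AVCs and to 182 nFPKM in WT AVCs. Jun family transcripts thus outnumbered Fos family transcripts per length by 2.31 to 1 in Sox9 cKO AVCs and by 6.77 to 1 in WT AVCs. Fos itself made up 51.0% of the Fos family sum in Sox9 cKO AVCs and 21.2% in WT AVCs. Jun stood at 4.77 times the level of Junb in Sox9 cKO AVCs and at 15.3 times in WT AVCs. Fosl2 (27.1 nFPKM in Sox9 cKO and 20.8 in WT) had a relative log2 ratio of 0.47. Jund (76.6 nFPKM in Sox9 cKO and 107 in WT), the member of the Jun family least dependent on stimulation, had one of -0.37. These are transcript levels over all cells of the pools, and dimers were not measured.

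**Figure D2:**
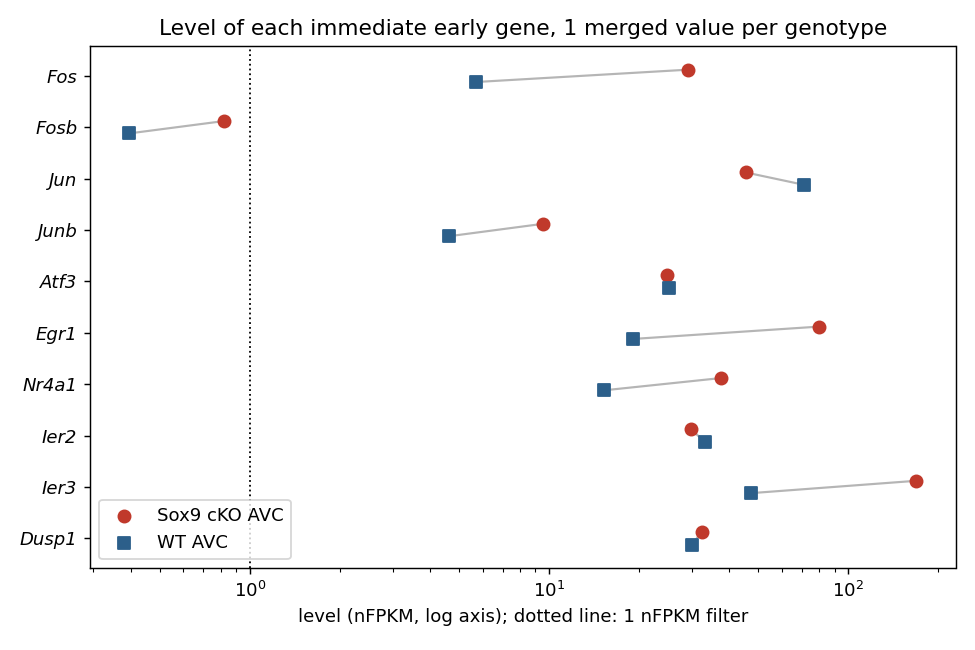
Level of each of the 10 genes in nFPKM on a log axis, with 1 merged value per genotype (circle, Sox9 cKO AVC; square, WT AVC) and no error bars because replicate values are not given. The points of Fos, Egr1, Ier3 and Nr4a1 lie far apart, those of Atf3, Ier2 and Dusp1 lie together, and Jun is the gene whose Sox9 cKO point lies clearly to the left.

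Egr1 and Nr4a1 are immediate early transcription factors outside the AP-1 family. Egr1, a zinc finger factor whose promoter is a classic target of SRF and ELK factors, stood at 79.6 nFPKM in Sox9 cKO AVCs, against 19.1 nFPKM in WT AVCs. The difference was 4.17-fold, the relative log2 ratio 2.11 and the rank 14 of 13793. Nr4a1, an orphan nuclear receptor, stood at 37.7 nFPKM in Sox9 cKO AVCs, against 15.2 nFPKM in WT AVCs, a relative log2 ratio of 1.36 and rank 46. For both genes the higher value lies between 30 and 100 nFPKM. Of the 4376 transcripts in that band, 0.297% met the 2-fold rule in the higher direction and 0.297% in the lower. The relative log2 ratios of that band were -0.33 and 0.38 at the 5th and 95th percentiles. Both shares were larger in the bands that hold Fos, Ier3 and Junb. In the band of Fos (10 to 30 nFPKM), 34 of 3926 transcripts met the rule upward and 32 downward. In that of Ier3 (at least 100 nFPKM), the counts were 26 and 10 of 1716. In that of Junb (3 to 10 nFPKM), they were 24 and 28 of 2135. Of the paralogs of Egr1 and Nr4a1 in the table, Nr4a3 met the 2-fold rule in the higher direction. Egr2, Egr3 and Nr4a2, named after their values were seen, did not. Nr4a3 passed the filter only through its Sox9 cKO value, so nothing is read from its meeting the rule. Egr2 stood at 1.97 nFPKM in Sox9 cKO and 0.99 in WT (relative log2 ratio 0.68), and Egr3 at 1.18 in Sox9 cKO and 1.27 in WT (0.05). Nr4a2 stood at 2.75 nFPKM in Sox9 cKO and 4.47 in WT (-0.44), and Nr4a3 at 3.13 nFPKM in Sox9 cKO and 0.43 in WT (1.63). Egr1 and Nr4a1 were the most abundant of their families' members in the table in both genotypes.

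Ier2 and Ier3 share a name and a mode of induction but not a sequence family. Ier3, a short membrane-anchored protein known as IEX-1 that modulates cell survival, stood at 168 nFPKM in Sox9 cKO AVCs, against 47.4 nFPKM in WT AVCs. The difference was 3.56-fold, the relative log2 ratio 1.91 and the rank 16. It was the most abundant of the 10 genes in Sox9 cKO AVCs, above 94.7% of all transcripts, whereas Jun was the most abundant in WT AVCs. Ier2, a nuclear protein, stood at 29.8 nFPKM in Sox9 cKO AVCs, against 33.2 nFPKM in WT AVCs, a relative log2 ratio of -0.05. Dusp1, a phosphatase that removes the activating phosphates from MAP kinases and so ends the signal that induced it, stood at 32.4 nFPKM in Sox9 cKO AVCs, against 30.0 nFPKM in WT AVCs, a relative log2 ratio of 0.21. Ier2, Dusp1 and Atf3, near-equal between the genotypes, were expressed at 24.7 to 33.2 nFPKM, levels at which Fos also stood in Sox9 cKO AVCs.

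Of the 9 genes that passed the filter, 5 were at least 2-fold higher in Sox9 cKO (Fos, Egr1, Ier3, Nr4a1 and Junb) and 0 at least 2-fold lower. Among all transcripts tested, 0.834% were at least 2-fold higher (115 of 13793) and 0.674% at least 2-fold lower (93). The genes were chosen with these values known and by the same contrast, so nothing is read from that share. The split of all 2-fold differences depends on the processing. Of them, 55.3% were higher in Sox9 cKO with the median subtracted and 37.8% without. With centring and a pseudocount of 0.1 nFPKM, 235 were higher and 261 lower, and 145 were higher and 165 lower by the fold changes of the authors' deposited table. Without centring, 4 of the 9 genes were at least 2-fold higher, Junb dropping out, beside 0.595% of all transcripts higher and 0.979% lower. The median relative log2 ratio of the 9 was 1.01, the value of Junb, and the range was -0.53 to 2.27, against -0.45 and 0.49 at the 5th and 95th percentiles over all transcripts. No gene lay between Junb at 1.01 and Dusp1 at 0.21. In the authors' deposited table, whose own median is close to 0, the log2 fold changes of Sox9 cKO over WT were 2.34 for Fos, 2.14 for Egr1, 1.93 for Ier3, 1.38 for Nr4a1, 1.05 for Junb and -0.53 for Jun.

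**Figure D3:**
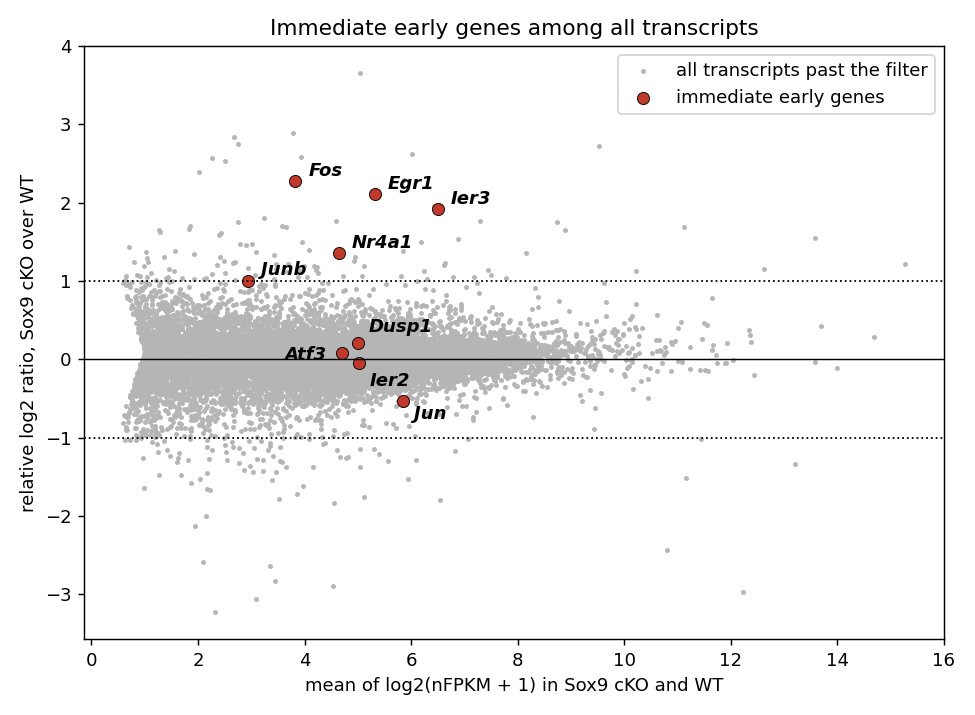
Relative log2 ratio of Sox9 cKO over WT (vertical axis) against the mean log2 level over both genotypes (horizontal axis) for the 13793 transcripts past the filter (grey) and the 9 immediate early genes among them (red); dotted lines mark a 2-fold difference. Fos, Egr1, Ier3 and Nr4a1 lie above the cloud of transcripts of their level, Junb lies at the upper line, and Jun lies at the lower side of the cloud.

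In the RefSeq table, no annotated gene overlapped any of the 10. The nearest protein-coding genes with a value on each side, 20 in all, had relative log2 ratios from -0.27 to 0.33. Of them, 0 met the 2-fold rule, against 0.834% of all transcripts in the higher and 0.674% in the lower direction. A count of 0 among 20 is near those shares, so nothing is read from it. Beside Fos, Tmed10 stood at 76.6 nFPKM in Sox9 cKO and 77.2 in WT, and the AP-1 gene Jdp2 at 10.7 in Sox9 cKO and 13.1 in WT. Beside Egr1, Etf1 stood at 144 nFPKM in Sox9 cKO and 143 in WT. Beside Ier3, Flot1 stood at 48.2 nFPKM in Sox9 cKO and 56.7 in WT. Order along the chromosome was taken from GRCm38.p6 and only names were matched.

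By distance between genes in log2(nFPKM + 1) of both genotypes, 2 values per gene, the 3 transcripts most like Fos were Ppm1h, Eif2s3y and Ddx3y, with distances of 0.02, 0.26 and 0.44. The last 2 are Y-linked. Those most like Egr1 were Hilpda, Bhlhe40 and Dusp4 (0.72, 0.77 and 0.79), and those most like Ier3 were Snord67, Bmp10 and Mir6236 (0.10, 0.51 and 0.53). With 2 values per gene, likeness here means no more than a similar level and a similar ratio.

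Other immediate early genes included a few with large differences and many with small ones. Of 50 further genes of this kind in 3 lists, 47 were in the table and 45 passed the filter. Of these, 5 were at least 2-fold higher in Sox9 cKO and 0 at least 2-fold lower (0.834% and 0.674% of all transcripts), and 30 stood above the all-transcript median. Their median relative log2 ratio was 0.22. Bhlhe40, a circadian and hypoxia-responsive repressor, stood at 123 nFPKM in Sox9 cKO and 26.4 in WT (2.29). Per1, a clock gene, stood at 25.2 nFPKM in Sox9 cKO and 11.4 in WT (1.19). Maff, a small MAF factor, stood at 21.8 nFPKM in Sox9 cKO and 10.9 in WT (1.05). The kinase gene Pim1 stood at 77.2 nFPKM in Sox9 cKO and 39.1 in WT (1.07). Nr4a3 was the remaining one, and it passed the filter only through its Sox9 cKO value. Without centring, 3 of the 45 met the rule. The other 40 stood below the 2-fold rule in either direction.

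Transcripts of kinases and factors that act upstream of these genes were described as well. None of 26 listed genes (MAP kinases and their activators, RSK and MSK kinases, SRF, ELK and CREB factors) met the 2-fold rule in the higher (0.834% of all transcripts) or the lower direction (0.674%). A count of 0 among 26 is near those shares, so nothing is read from it. The median relative log2 ratio of the 26 was 0.03 and the range -0.33 to 0.33. The ends of that range were Rps6ka5 (9.20 nFPKM in Sox9 cKO and 12.8 in WT), which encodes MSK1, and Mapk3 (95.7 in Sox9 cKO and 81.7 in WT), which encodes ERK1. Srf itself stood at 65.6 nFPKM in Sox9 cKO and 76.1 in WT (-0.11). Transcript levels do not measure the activity of kinases. Among 15 feedback genes of growth factor signalling, 1 was at least 2-fold higher in Sox9 cKO (Dusp4, 45.6 nFPKM in Sox9 cKO and 19.3 in WT, 1.30), 0 were 2-fold lower, and 12 stood above the all-transcript median, with a list median of 0.27. Of 15 SRF targets of the cytoskeleton in the table, 0 met the rule in the higher or the lower direction (0.834% and 0.674% of all transcripts). That count is near those shares. Of these targets, 13 stood above the all-transcript median and 2 below, with a list median of 0.15. The highest were Actg2 (5.11 nFPKM in Sox9 cKO and 3.15 in WT, 0.66) and Acta1 (369 in Sox9 cKO and 255 in WT, 0.64).

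Lists of stress genes, also chosen with earlier results of these data known, were described beside these, since immediate early genes respond to stress. Nothing is read from their counts past the 2-fold rule. In the integrated stress response, 11 of 11 genes in the table stood above the all-transcript median, 2 were at least 2-fold higher in Sox9 cKO and 0 at least 2-fold lower (0.834% and 0.674% of all transcripts), with a median of 0.62. Chac1, counted among the 11, passed the filter only through Sox9 cKO (1.00 nFPKM, against 0.25 in WT). It is named after its value was seen, and its place above the median is not read as a result. Those at least 2-fold higher were Ddit3 (154 nFPKM in Sox9 cKO and 26.2 in WT, 2.62) and Stc2 (20.7 in Sox9 cKO and 6.21 in WT, 1.69). Atf4, the central factor of that response, stood at 210 nFPKM in Sox9 cKO and 147 in WT (0.62), a value singled out after it was seen. Atf3, a target of the same response, stood at 0.08. Of 12 hypoxia genes, 12 stood above the median, 5 were at least 2-fold higher in Sox9 cKO and 0 at least 2-fold lower (0.834% and 0.674% of all transcripts). Those 5 were Ndrg1 (1.77), Ankrd37 (1.22), Adm (1.10), Egln3 (1.06) and Vegfa (1.05); without centring 2 of them met the rule. The median of this list was 0.94. Heat shock genes gave 0 of 13 past the rule in the higher or the lower direction, near the shares of all transcripts (0.834% and 0.674%). Their median was 0.05, with 10 above the all-transcript median and 3 below. Hspa5 at 0.31 and Hsp90ab1 at 0.23 were the furthest from 0 among those with at least 3 nFPKM. Below that level, Hspa1b (2.39 nFPKM in Sox9 cKO and 1.46 in WT) stood at 0.57. Hspa1a (2.23 in Sox9 cKO and 1.43 in WT) stood at 0.52, both named after their values were seen. The medians of the heat shock and upstream lists lay below 0 without centring, at -0.05 and -0.08. The part of stress or hypoxia in the differences of Fos, Egr1, Ier3, Nr4a1 and Junb was not tested.

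**Figure D4:**
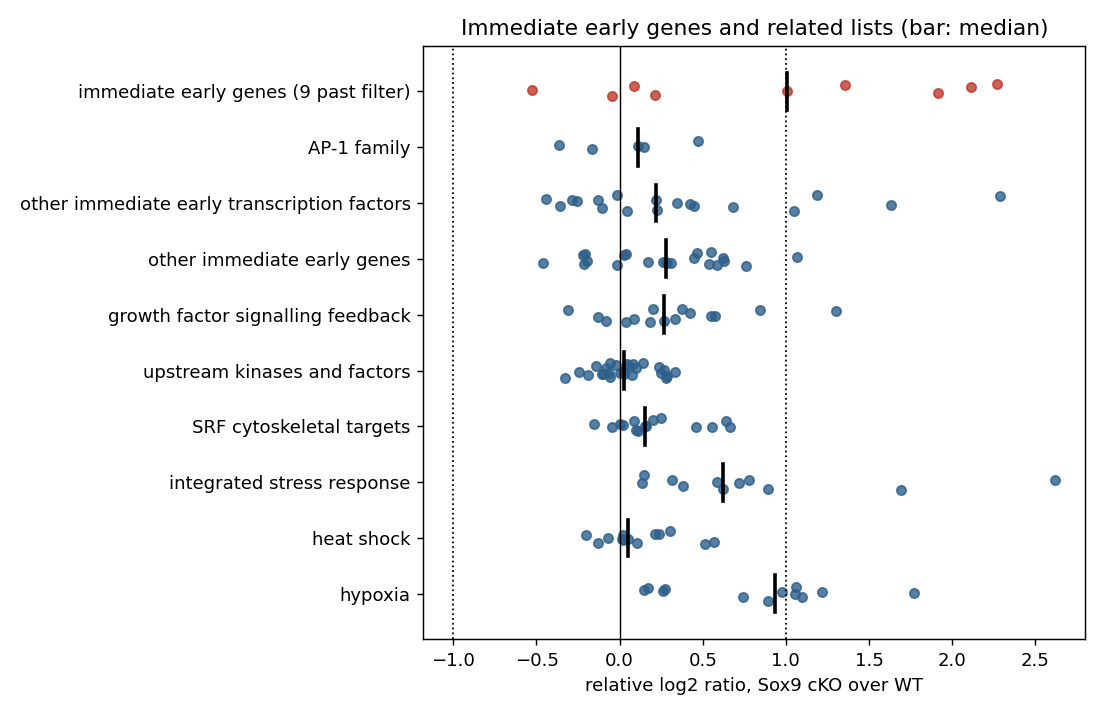
Relative log2 ratio of Sox9 cKO over WT for each gene past the filter (points; spread within a row has no meaning) in the immediate early genes (red, 9 genes) and in 9 related lists without them (blue); vertical bars are list medians and dotted lines a 2-fold difference. Medians of the integrated stress (0.62) and hypoxia (0.94) lists lie well to the right, and upstream kinases and factors gather around 0.

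Markers of several cell types also differed between the genotypes, and in bulk tissue more cells of a type and more RNA per cell cannot be told apart. Sox9, the targeted gene, stood at 14.7 nFPKM in Sox9 cKO AVCs, against 36.7 nFPKM in WT AVCs (relative log2 ratio -1.16). All 9 markers of valve mesenchyme, a list that counts Sox9 itself, were below the all-transcript median and summed to 1525 nFPKM in Sox9 cKO and 2391 in WT. Of 10 erythroid markers, 10 were above it, with sums of 91518 nFPKM in Sox9 cKO and 40251 in WT. Epicardial markers were above it in 7 of 8 cases (sums of 343 nFPKM in Sox9 cKO and 239.7 in WT) and endothelial markers in 10 of 12 (1188 in Sox9 cKO and 1017 in WT). Macrophage markers were above it in 3 of 9 (138 in Sox9 cKO and 162 in WT) and cardiomyocyte markers in 5 of 10 (31804 in Sox9 cKO and 29758 in WT). Neural crest and glial markers were above it in 1 of 5 (161 in Sox9 cKO and 140.1 in WT). That 1 marker, Ednrb, made up most of the sum (147 nFPKM in Sox9 cKO and 112 in WT). The lowest ratio was that of Dct (1.12 nFPKM in Sox9 cKO and 8.17 in WT). Of the tissues that the labels name, the lowest marker of cardiomyocytes stood at 101 nFPKM in Sox9 cKO and 106 in WT. That of endothelium stood at 9.28 in Sox9 cKO and 15.7 in WT. In valve mesenchyme the lowest marker differed between the genotypes. It was Papss2 in Sox9 cKO (7.20 nFPKM, against 64.7 in WT) and Msx1 in WT (20.0 nFPKM, against 9.10 in Sox9 cKO). No transcript in the whole table is listed at 0. The 4 Y-linked genes stood in Sox9 cKO at between 6.39 (Eif2s3y) and 9.43 (Uty) times their WT level. Xist was 71.6 nFPKM in Sox9 cKO, against 175 nFPKM in WT, so the pools differed strongly in sex-linked transcripts too. The part of these differences in the values of the immediate early genes was not tested. An effect of the deletion, of Cre and of the pool cannot be told apart in this design.

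Which genes met the 2-fold rule changed little with the processing. Under 7 alternative settings, Fos, Egr1, Ier3 and Nr4a1 stayed past the 2-fold rule in the higher direction, and Jun, Atf3, Ier2 and Dusp1 stayed under it. The log2 ratio of Fos ran from 1.75 with a pseudocount of 5 nFPKM to 2.44 with one of 0.1 nFPKM, and with the pseudocount of 5 it lay below those of Egr1 (1.89) and Ier3 (1.81). Junb was under the rule in 3 of the 7.

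**Figure D5:**
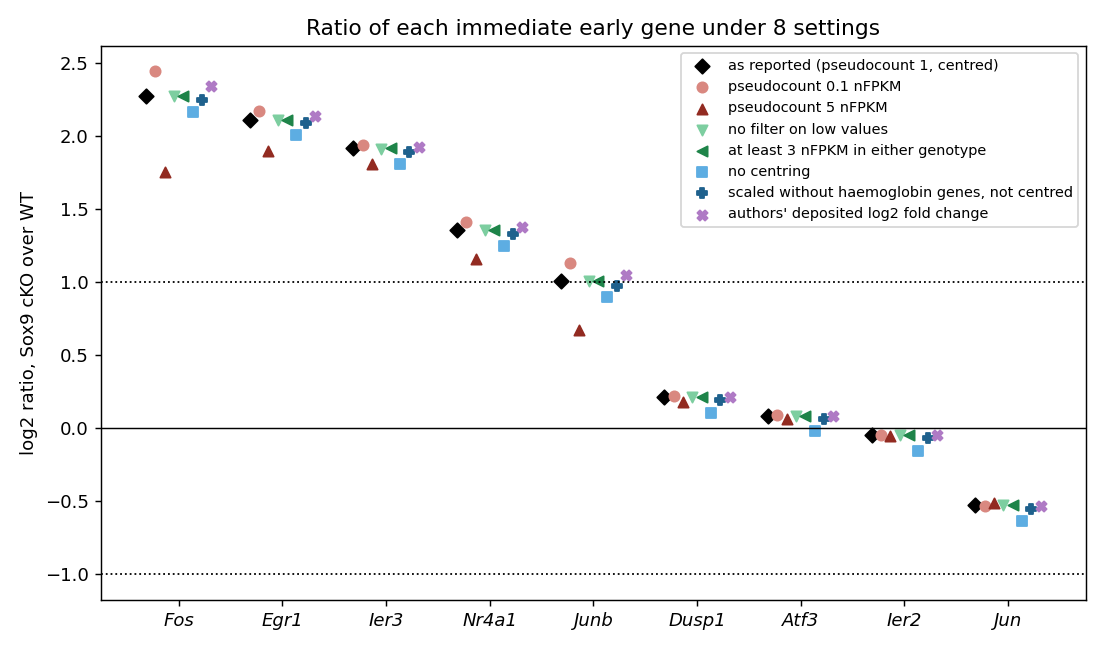
Log2 ratio of Sox9 cKO over WT for the 9 genes past the filter under the reported setting (black diamond) and 7 alternatives (other symbols); dotted lines mark a 2-fold difference. The genes keep their groups, with Junb on either side of the line (0.67 to 1.13).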

How the data were processed

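Of the 5 samples of the series, the 2 RNA-seq samples were used, and groups were taken from the genotype labels. Per the file headers, the deposited FPKM values were normalized further by the authors (nFPKM) and merged over duplicate libraries; the sources used here do not give how. Per the submitters' processing notes, TopHat2, Cufflinks, edgeR and mm9 were used, without versions or roles. The authors also deposited a log2 fold change of Sox9 cKO over WT, with no p-value.

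The log2 ratio used a pseudocount of 1 nFPKM, a filter of at least 1 nFPKM in either genotype, and subtraction of the all-transcript median. With 1 value per genotype, a rule of size was applied (at least 2-fold). The values were not recoverable as counts, and low depth cannot be told from low expression. All 10 genes are named. From the other lists, genes past the 2-fold rule are named, or otherwise the 2 with the largest absolute ratio among those with at least 3 nFPKM, and other genes are said to be named after their values were seen. The genes and lists were chosen with earlier results of these data known. The SOX9 ChIP-seq peaks, on mm9, were not placed relative to genes, since no mm9 annotation was used here. Promoter sequences are RefSeq's (GRCm38.p6). The ratio step was tested on simulated data. Python 3.11.15, numpy 2.4.6, pandas 2.3.3 and matplotlib 3.10.9 were used.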

Additional observations from a re-analysis of the deposited data

How the results depend on the processing

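Alternatives were pseudocounts of 0.1 and 5 nFPKM, no filter, a filter of 3 nFPKM, no centring, scaling by the sum without haemoglobin genes, and the authors' deposited log2 fold change. The number of immediate early genes at least 2-fold higher in Sox9 cKO was 4 or 5 under all of these, and the number at least 2-fold lower was 0. Junb fell under the rule with a pseudocount of 5 (0.67), without centring (0.90) and with scaling by the sum without haemoglobin genes (0.97). The median of the immediate early genes was 0.67 with a pseudocount of 5, and 0.75 without the filter, which adds Fosb. Over all transcripts, 235 were at least 2-fold higher and 261 lower in Sox9 cKO with a pseudocount of 0.1, and 45 higher and 36 lower with one of 5, since a pseudocount shrinks the ratios of low transcripts. In the authors' deposited table, 145 were higher and 165 lower. No paired analysis was possible because the table holds 1 merged value per genotype; for the same reason no library could be left out. Depth is unknown, so no interval is given for any level, and the values of Fosb, Egr2, Egr3 and Nr4a3 near 1 nFPKM or below are the least certain.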
